A study of Mus musculus with 2 samples.

Results

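The 45 genes described here encode plasma proteins of the acute phase response, the complement system and blood coagulation, together with the metallothioneins Mt1 and Mt2. They were taken by symbol from the 33696 genes counted in both libraries, and each symbol matched 1 row. By role they comprise 14 soluble acute phase proteins, 2 metallothioneins, 9 complement components, 3 proteins of the lectin pathway, 3 fibrinogen chains, 8 coagulation zymogens, cofactors and contact phase proteins, and 6 anticoagulants and proteins of fibrinolysis and adhesion. Their mRNA was counted in single cells of mouse liver, captured in droplets for 3' sequencing, in 1 library labelled SLC22A18-/- (KO-labelled below) and 1 library labelled SLC22A18+/+ (WT-labelled), in which Slc22a18, an imprinted transporter gene, is said to be inactive or intact. No treatment is named for either group, and strain, age, sex, the number of animals pooled and the deleted part of the gene were not given in the sources used here. With 1 library per genotype there is no replicate, so differences between the libraries carry counting error only, no test was possible, and genotype cannot be told apart from animal, dissociation or library preparation.

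Hepatocytes secrete most of these proteins into plasma. In the acute phase response, interleukin-6 and interleukin-1 reach hepatocytes during inflammation or injury and raise transcription of serum amyloids, haptoglobin, hemopexin and fibrinogen through STAT3, NF-kB and C/EBP factors, while albumin and transthyretin go down. Complement is a cascade of proteases that ends in the pore formed by C5 to C9, and coagulation is a cascade that ends in the cleavage of fibrinogen by thrombin. Metallothioneins bind zinc and copper and are induced through the metal-sensing factor MTF1 and by glucocorticoids. Hepatocytes differ along the lobule, from periportal cells around the incoming vessels to pericentral cells around the outgoing vein.

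All 45 genes were found in the GENCODE vM21 annotation of GRCm38, on 15 chromosomes, and 7 sets of them were direct neighbours among protein-coding genes. Fgg, Fga and Fgb, the gamma, alpha and beta chains of fibrinogen, lie side by side over 42.1 kb of chromosome 3 (83007724 to 83049863), with Fgb on the minus strand. C8b and C8a, which encode chains of complement factor C8, lie over 110.1 kb of chromosome 4 (104766317 to 104876398), and Mt2 and Mt1 over 7.7 kb of chromosome 8 (94172664 to 94180327). An exon of 8 of the 45 genes overlaps an exon of another counted gene on the opposite strand, Fgg and Mt2 among them. In hepatocytes the antisense partner of Fgg, Gm30097, had 154 UMIs in the KO-labelled and 110 in the WT-labelled library, and that of Mt2, Gm45774, had 16 and 2. Both are small beside the counts of Fgg and Mt2 given below.

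Promoters of the 6 genes that differed most between the libraries in the main kind of hepatocyte are shown because these genes were higher together in the same library. They include the whole fibrinogen locus, both metallothioneins and C8b without its neighbour C8a. RefSeq (GRCm38.p6) gave a promoter, from 250 bases before to 50 bases after the start, for 35 of the 45 genes. In the first 4, capitals mark CTGGGAA, a core of interleukin-6 response elements, and GTTAAT, part of the site bound by the hepatocyte factor HNF1, on either strand. The regions are chr3:83025903-83026202 (plus strand), chr3:83049814-83050113 (minus strand), chr3:83007474-83007773 (plus strand) and chr4:104766067-104766366 (plus strand).
Fga: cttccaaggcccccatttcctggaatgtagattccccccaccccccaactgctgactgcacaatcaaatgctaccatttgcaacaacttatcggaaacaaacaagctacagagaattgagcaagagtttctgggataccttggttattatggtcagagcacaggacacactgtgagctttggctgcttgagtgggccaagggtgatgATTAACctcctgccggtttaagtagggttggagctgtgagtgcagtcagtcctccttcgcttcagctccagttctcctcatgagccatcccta
Fgb: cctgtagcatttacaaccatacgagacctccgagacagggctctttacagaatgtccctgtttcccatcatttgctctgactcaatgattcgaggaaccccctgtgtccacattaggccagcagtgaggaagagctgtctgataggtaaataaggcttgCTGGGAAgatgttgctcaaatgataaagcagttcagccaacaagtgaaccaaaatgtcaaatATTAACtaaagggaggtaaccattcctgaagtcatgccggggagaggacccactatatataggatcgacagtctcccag
Fgg: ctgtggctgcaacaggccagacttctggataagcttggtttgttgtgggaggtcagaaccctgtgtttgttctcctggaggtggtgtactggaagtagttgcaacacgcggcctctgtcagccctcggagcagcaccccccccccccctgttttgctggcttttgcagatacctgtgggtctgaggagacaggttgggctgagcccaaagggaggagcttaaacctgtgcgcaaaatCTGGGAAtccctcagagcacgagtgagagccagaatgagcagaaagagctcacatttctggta
C8b: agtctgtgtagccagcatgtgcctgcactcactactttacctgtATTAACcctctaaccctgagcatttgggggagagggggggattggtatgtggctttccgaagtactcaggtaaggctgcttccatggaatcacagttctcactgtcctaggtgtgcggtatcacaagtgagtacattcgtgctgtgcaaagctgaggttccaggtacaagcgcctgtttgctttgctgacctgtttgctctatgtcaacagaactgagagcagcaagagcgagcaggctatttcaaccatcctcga
In the metallothionein promoters, chr8:94178839-94179138 and chr8:94172368-94172667 (both plus strand), capitals mark the core of the metal response element, TGCACNC or TGCGCNC on either strand.
Mt1: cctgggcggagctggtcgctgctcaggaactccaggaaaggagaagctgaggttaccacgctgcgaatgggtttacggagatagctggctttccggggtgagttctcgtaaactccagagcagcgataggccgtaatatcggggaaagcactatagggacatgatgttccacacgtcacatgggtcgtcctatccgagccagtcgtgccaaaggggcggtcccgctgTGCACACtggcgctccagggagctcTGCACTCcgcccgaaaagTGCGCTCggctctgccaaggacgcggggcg
Mt2: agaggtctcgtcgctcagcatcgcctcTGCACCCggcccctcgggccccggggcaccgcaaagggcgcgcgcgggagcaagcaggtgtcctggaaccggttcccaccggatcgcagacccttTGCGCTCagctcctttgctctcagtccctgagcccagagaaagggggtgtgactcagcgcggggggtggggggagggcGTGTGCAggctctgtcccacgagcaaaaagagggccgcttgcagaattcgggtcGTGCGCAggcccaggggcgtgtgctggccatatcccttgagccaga
No matches of different motifs overlapped in these windows. CTGGGAA was found in the Fgb and Fgg promoters and in 3587 of 32544 promoters of the same length, and GTTAAT in those of Fga, Fgb and C8b and in 7.13%. The metal response core occurred 3 times for Mt1 and 4 times for Mt2, also once each for Fga, Fgg and C8b, and at least once in 25.9% of promoters. The C/EBP-like string TTGCNNAA was present for Fga, Fgb and Mt2 (10.8% of promoters) and the STAT palindrome TTCNNNGAA for Fga and Fgb (8.33%). Among the 35 genes with a promoter, CTGGGAA was found in 5, GTTAAT in 8, the metal response core in 7, TTGCNNAA in 15 and TTCNNNGAA in 8. A match describes letters in a window and is not a binding site.

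The KO-labelled library held 103478998 UMIs (unique molecular identifiers, each standing for 1 captured mRNA molecule) in 11741 barcodes, of which 11154 were kept, and the WT-labelled library 105556354 UMIs in 12796 barcodes, of which 12002 were kept. The libraries shared 38 barcodes. Slc22a18 itself did not separate them: hepatocytes held 1405 UMIs of it in the KO-labelled and 1599 in the WT-labelled library, or 52.9 (50.2 to 55.7) and 58.0 (55.2 to 60.9) CPM, the count per 1000000 UMIs of the class. Reads from the 3' end outside a deleted part would check nothing, so the labels are used as given. Cells carrying the hepatocyte markers numbered 3094 in the KO-labelled and 3221 in the WT-labelled library, and their 5 clusters each showed all 11 of those markers. RNA of hepatocytes was also found in other cells. The median of 16 hepatocyte-restricted genes reached between 8.12% and 45.9% of its hepatocyte level in the 12 other classes of the KO-labelled library, and between 10.3% and 25.0% in those of the WT-labelled library. A level in another class is therefore read only against that background.

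The 5 hepatocyte clusters were of 2 kinds. Clusters 4, 5, 8 and 18, with 78.5% of the hepatocytes of the KO-labelled and 72.4% of those of the WT-labelled library, were rich in Malat1, a noncoding RNA kept in the nucleus (37856 and 41801 CPM), and had few mitochondrial UMIs (0.975% and 0.966%). Cluster 18 was led by genes of dividing cells. Cluster 22 was poor in Malat1 (1741 and 1711 CPM), with 3.36% and 5.03% mitochondrial UMIs and with 15835 and 23575 CPM of albumin mRNA. Its cells were shallower, with a median of 2609 UMIs in the KO-labelled and 3075.5 in the WT-labelled library, against 5960 and 5615 in Malat1-rich cells. This split was made after the data had been seen, from clusters built without the 45 genes, and the 45 genes differed sharply by it.

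Together the 45 genes took 1.66% of all hepatocyte UMIs in the KO-labelled and 1.52% in the WT-labelled library. Every one of them was detected in hepatocytes of both libraries, with at least 108 UMIs in each case. Counts come from 3' ends, 1 per captured molecule, and were not divided by gene length. The most abundant was Ahsg, encoding fetuin-A, a carrier that keeps calcium phosphate in solution, at 2624 CPM in the KO-labelled and 2706 CPM in the WT-labelled library. Next came Kng1, the kininogen of the contact phase (1215 and 953 CPM), and Fgb (1239 and 781 CPM). Fgg stood at 951 and 633 CPM, Plg, encoding plasminogen, the precursor of the clot-dissolving protease, at 754 and 717 CPM, and Serpinc1, encoding antithrombin, at 694 and 751 CPM. Fga stood at 808 and 374 CPM and C3, the central complement component, at 600.3 and 540 CPM. The serum amyloid genes Saa1 and Saa2, the most inducible of mouse acute phase genes, were among the lowest, together with Orm2 (4.70 and 4.64 CPM). Saa1 had 425 UMIs in the KO-labelled and 344 in the WT-labelled library (16.0 and 12.5 CPM), and Saa2 had 108 and 142 (4.06 and 5.15 CPM).

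These few serum amyloid UMIs sat in few cells. Saa1 was seen in 134 of 3094 hepatocytes of the KO-labelled and 151 of 3221 of the WT-labelled library, and the 10 cells with the most held 57.2% and 40.4% of its UMIs. For Saa2 the 10 cells with the most held 75.9% and 78.9%, with up to 61 UMIs in 1 WT-labelled cell. Among 9 genes the top 10 cells held over 10% in both libraries, the others being Orm1, Orm2, Hp, Hpx, Apcs, Mbl2 and Mt1. Some further genes were over 10% in the WT-labelled library only. There the top 10 cells held 16.4% of the UMIs of Mt2, 13.6% of those of Fga, 13.3% for C3 and 10.9% for Fgg. Counting intervals for all these genes are too narrow, since they treat UMIs of 1 cell as independent. Saa1, Saa2, Orm1 and Orm2 are also members of families of near-identical genes, and how reads were split between copies was not given in the sources used here, so their separate values are uncertain.

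The level of a gene depended strongly on the kind of hepatocyte. Of the 45 genes, 21 were higher and 19 lower in Malat1-poor than in Malat1-rich cells in both libraries, by intervals that exclude 1, against 21.8% and 60.9% of all 12989 genes compared. All of the serum amyloids, the orosomucoids Orm1 and Orm2, haptoglobin (Hp) and hemopexin (Hpx), which bind free haemoglobin and haem, and the metallothioneins were among those higher in Malat1-poor cells. Saa1 was 21.1 times as high there in the KO-labelled and 16.9 times in the WT-labelled library, Orm1 15.8 and 15.1 times, and Mt1 5.35 and 13.2 times. Of the 14 soluble acute phase genes 10 were higher in Malat1-poor cells and 4 lower. Crp stood at 0.305 and 0.337 of its Malat1-rich level, Cp at 0.302 and 0.604, Itih3 at 0.347 and 0.495, and Lbp at 0.520 and 0.706. Of the 8 contact phase and coagulation genes 6 were lower in Malat1-poor cells, a share near that of all genes, and prothrombin (F2) was higher, at 1.17 and 1.73 times. F11, the zymogen of the contact pathway, stood at 0.0857 of its Malat1-rich level in the KO-labelled and 0.0884 in the WT-labelled library, and F5, a cofactor of thrombin formation, at 0.126 and 0.175. The genes also differ widely in length, and RNA of the nucleus was not counted apart from that of the cytoplasm. The part of gene length and of nuclear RNA in these levels was not tested.

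**Figure D1:**
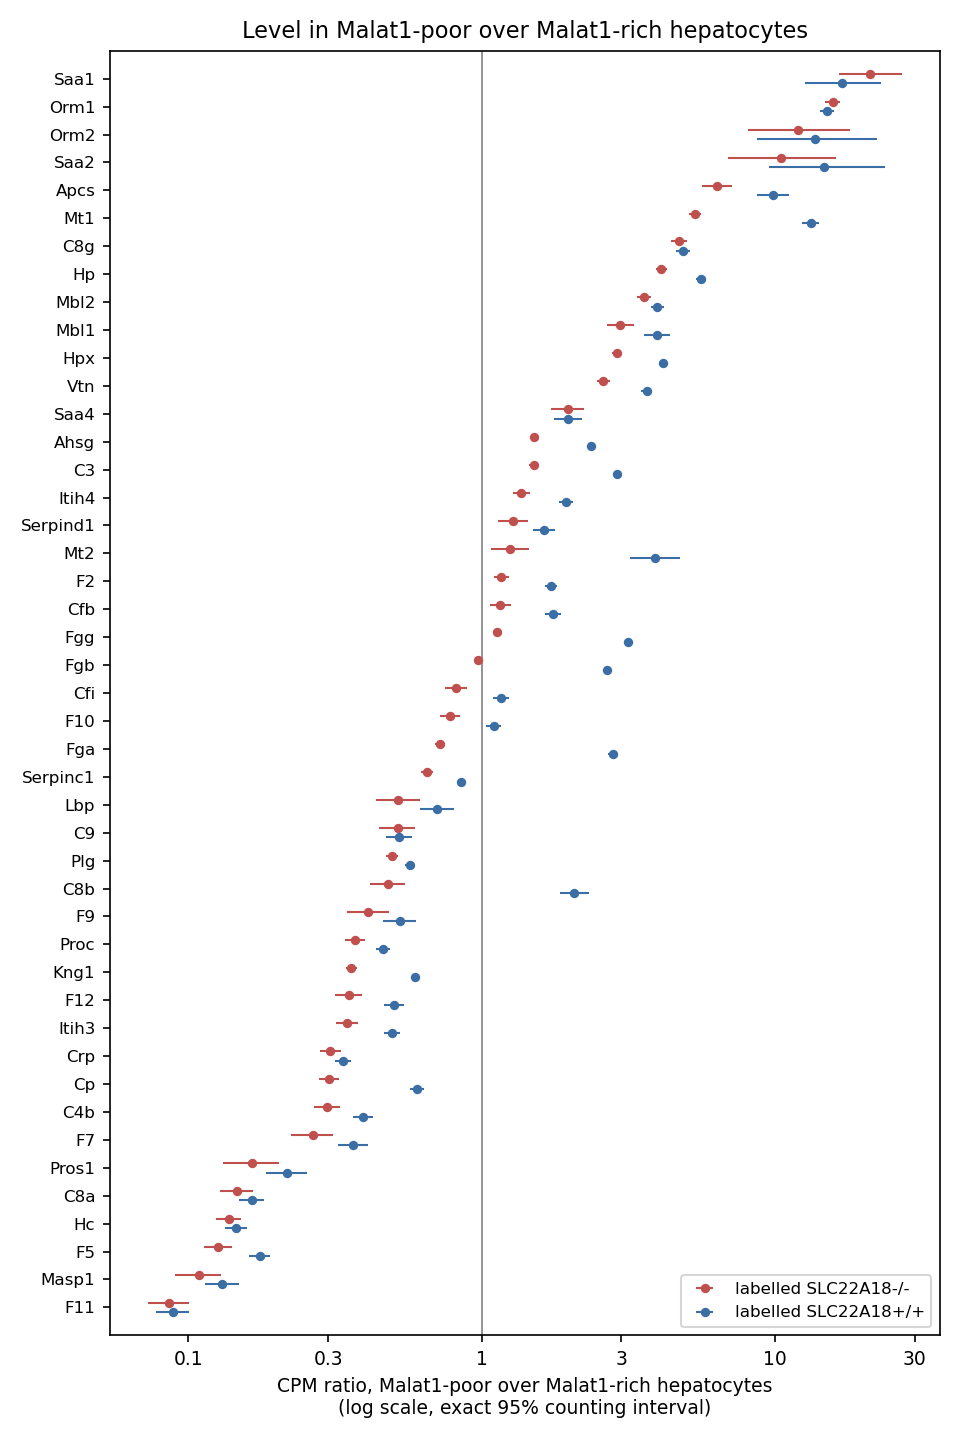
Level of each of the 45 genes in Malat1-poor over Malat1-rich hepatocytes (CPM ratio, log axis), with exact 95% counting intervals, for the library labelled SLC22A18-/- (red) and the library labelled SLC22A18+/+ (blue). Genes run from F11, near 0.09 in both libraries, to Saa1, at 21.1 and 16.9, and for C8b, Cfi, Fga, Fgb and F10 the points of the libraries lie on either side of 1, with the interval of Fgb in the KO-labelled library reaching 1.

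Between the libraries, the clearest difference in these genes was in fibrinogen, the metallothioneins and C8b. Over all hepatocytes, 3 of the 45 genes passed a rule of size. It asked for 50 UMIs or more in both sums together, a CPM at least 2 times as high, a counting interval without 1, and detection in 5% or more of the higher library's cells. All 3, Fga, C8b and Mt2, were higher in the KO-labelled library and 0 were lower. Of all 14704 genes with enough UMIs, 0.292% were higher and 0.163% lower by the same rule. The ratios of the other 42 genes ran from 0.747 for Hpx to 1.59 for Fgb. With a ratio of 1.5 as the limit 5 genes passed upwards, Fgb and Fgg being added, against 2.97% of all genes. The median log2 ratio was 0.02 for the 45 genes and 0.05 for all genes, and changing the scaling factors turned the first of these below 0, so no direction is given for the genes as a whole.

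Within Malat1-rich hepatocytes 6 of the 45 genes passed, all higher in the KO-labelled library (of all genes 0.376% were higher and 0.244% lower), with a median log2 ratio of 0.11 for the 45 genes against 0.01 for all genes. The interval lay above 1 for 25 of the 45 genes and below 1 for 6, against 15% and 14.1% of all genes. In Malat1-poor hepatocytes 0 passed in either direction (0.0733% of all genes were higher and 0.272% lower), 33 of the 45 intervals lay below 1 and 3 above, against 10.1% and 10.8% of all genes, and the median log2 ratio was -0.31, against 0.00 for all genes. For 18 of the 45 genes the interval lay above 1 in Malat1-rich and below 1 in Malat1-poor cells, which was true of 2.09% of the 9492 genes measured in both. No gene of the 45 showed the reverse. Intervals narrow as UMIs rise, and shares of all genes by interval, here and elsewhere in the text, were not matched for UMIs. The part of abundance in the shares of the 45 genes was not tested. In Malat1-poor cells albumin mRNA, at 0.672 of its WT-labelled level, and the mitochondrial share moved the same way, and their part in these ratios was not tested. Summed markers of Kupffer cells stood at 328 CPM in hepatocytes of the KO-labelled and 262 CPM in those of the WT-labelled library, those of endothelial cells at 461 and 436 CPM and those of stellate cells at 92.9 and 123 CPM. Markers of monocytes summed to 1066 and 862 CPM, of plasma cells to 215 and 143 CPM and of erythroid cells to 99.6 and 69.3 CPM. In Malat1-rich cells alone plasma cell markers stood at 229 CPM in the KO-labelled and 136 CPM in the WT-labelled library. Some listed markers are not restricted to the named cell, such as Fn1 for monocytes and Xbp1 for plasma cells. The sums were not split by gene, so they do not measure RNA of those cells in hepatocytes. The part of these markers in the ratios was not tested.

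**Figure D2:**
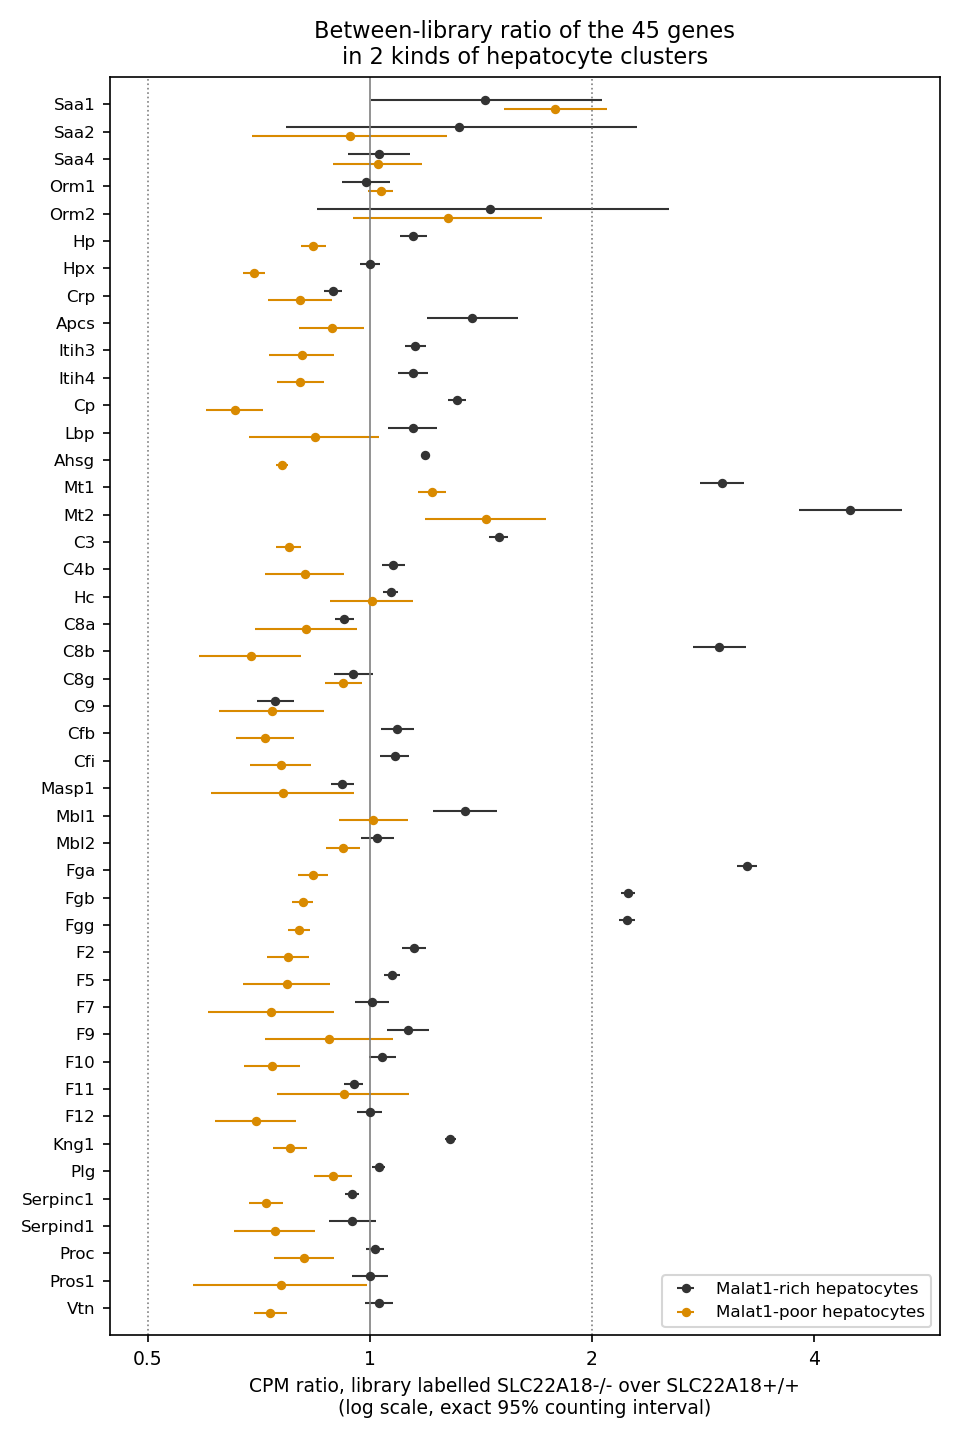
CPM ratio of each of the 45 genes, library labelled SLC22A18-/- over library labelled SLC22A18+/+ (log axis), in Malat1-rich (dark) and Malat1-poor (orange) hepatocytes, with exact 95% counting intervals and dotted lines at ratios of 0.5 and 2. The 6 dark points past 2 are Mt1, Mt2, C8b, Fga, Fgb and Fgg, and no orange point lies past either dotted line.

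The 3 fibrinogen chains, which assemble into the protein that thrombin turns into fibrin, were higher together in Malat1-rich cells. Fga had 18787 UMIs in the KO-labelled and 5474 in the WT-labelled library (848 and 261 CPM), a ratio of 3.24 (3.15 to 3.34). Fgb had 27593 and 11653 UMIs (1245 and 556 CPM), a ratio of 2.24 (2.19 to 2.29). Fgg had 20639 and 8738 UMIs (931 and 417 CPM), a ratio of 2.23 (2.18 to 2.29). The 3 chains summed to 3023 CPM in the KO-labelled and 1235 CPM in the WT-labelled library. In Malat1-poor cells all 3 were slightly lower instead. Fga stood at 612 CPM in the KO-labelled and 731 CPM in the WT-labelled library, a ratio of 0.838 (0.799 to 0.878), Fgb at 0.811 (0.784 to 0.839) and Fgg at 0.802 (0.774 to 0.831) of the WT-labelled level. In the KO-labelled library the level in Malat1-poor cells was 0.722 times that in Malat1-rich cells for Fga, 0.972 for Fgb and 1.13 for Fgg, against 2.80, 2.68 and 3.15 times in the WT-labelled library. Over all hepatocytes Fga had 21481 UMIs in the KO-labelled and 10327 in the WT-labelled library, a ratio of 2.16 (2.11 to 2.21), and Fgb and Fgg had ratios of 1.59 (1.56 to 1.61) and 1.503 (1.47 to 1.53).

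By cluster the fibrinogen ratio was above 1 in each of the 4 Malat1-rich clusters. For Fga it was 3.16 in cluster 4, 3.76 in cluster 5, 1.81 in cluster 8 and 3.51 in cluster 18, which held only 30 cells of the KO-labelled and 96 of the WT-labelled library. Cluster 8 stood apart in that its WT-labelled cells already carried 604 CPM of Fga, 1487 CPM of Fgb and 1289 CPM of Fgg, against 223 to 258 CPM of Fga in WT-labelled cells of clusters 4 and 5. More cells carried the mRNA as well. After each cell was thinned to 2000 UMIs, Fga was seen in 74.8% (73.0 to 76.5) of Malat1-rich hepatocytes of the KO-labelled and 40.6% (38.6 to 42.7) of those of the WT-labelled library (93.8% and 71.0% without thinning). In T cells, which do not make fibrinogen, the thinned shares were 17.5% and 13.1%, with median depths of 6065 and 5814 UMIs. In B cells they were 26.6% and 22.4%, at medians of 3175 and 3357.5 UMIs. The share in hepatocytes lay above both backgrounds in each library.

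**Figure D3:**
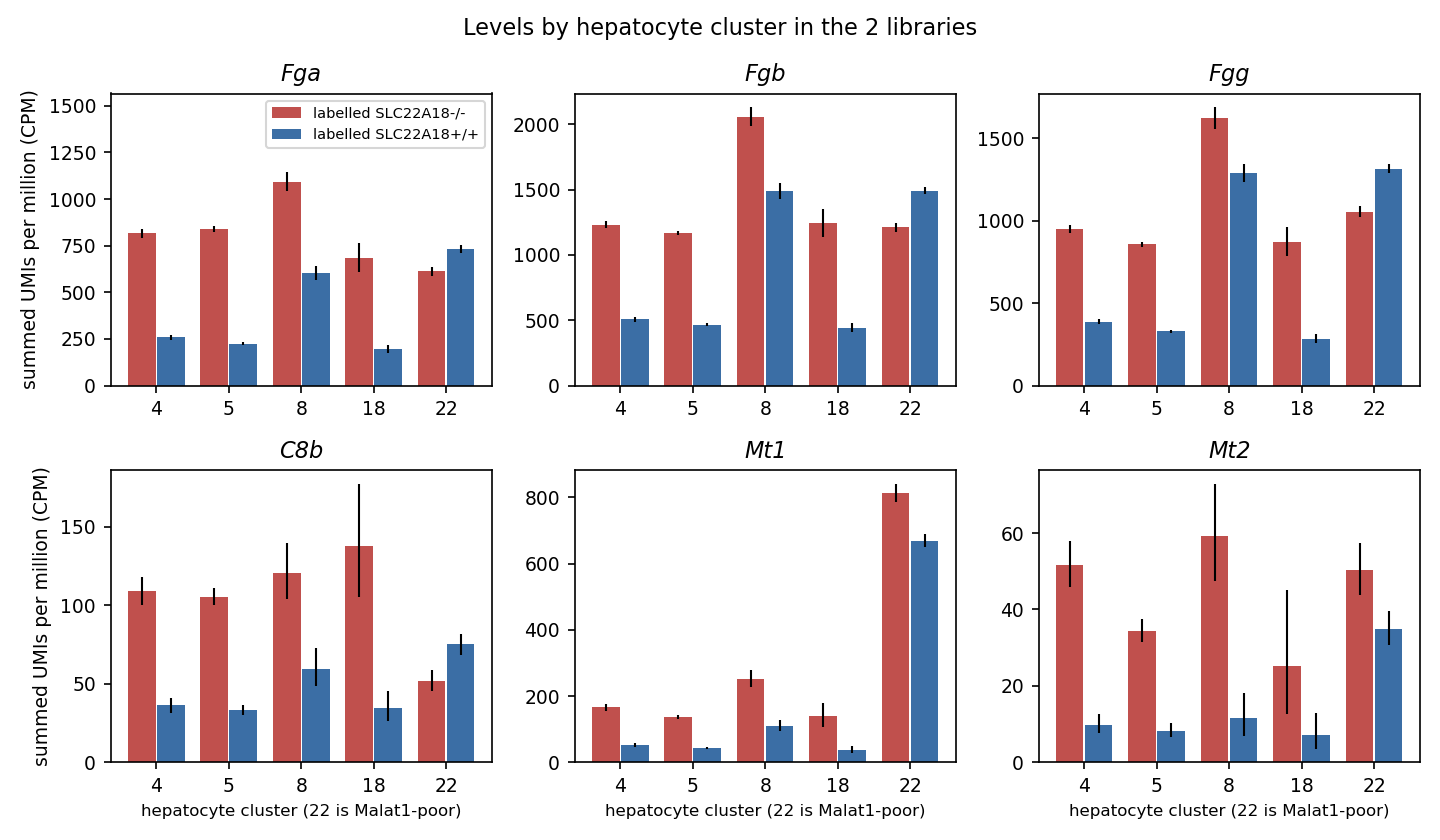
Level (CPM, from summed UMIs) of Fga, Fgb, Fgg, C8b, Mt1 and Mt2 in each hepatocyte cluster, for the library labelled SLC22A18-/- (red) and the library labelled SLC22A18+/+ (blue), with exact 95% counting intervals. Red bars exceed blue bars in clusters 4, 5, 8 and 18 for all 6 genes, and in cluster 22 only for Mt1 and Mt2.

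Among the 9 complement components C8b alone passed the size rule over all hepatocytes and in Malat1-rich cells, and C3 passed it besides in the small cluster 18, at 2.56 (2.19 to 2.98), where 2.93% of all genes were higher. C8b encodes the beta chain of C8, which with C8a and C8g forms part of the membrane pore. In Malat1-rich cells it had 2394 UMIs in the KO-labelled and 760 in the WT-labelled library (108 and 36.3 CPM), a ratio of 2.98 (2.74 to 3.23). In Malat1-poor cells it had 228 and 499 UMIs, a ratio of 0.689 (0.587 to 0.808). Over all hepatocytes the counts were 2622 in the KO-labelled and 1259 in the WT-labelled library (98.7 and 45.6 CPM; ratio 2.16, 2.02 to 2.31). Its partners did not follow it. C8a, its neighbour on chromosome 4, had a Malat1-rich ratio of 0.924 (0.896 to 0.953) and C8g one of 0.951 (0.893 to 1.01). C9, which completes the pore, was at 0.745 (0.704 to 0.789). C3 stood at 554 CPM in Malat1-rich cells of the KO-labelled and 371 CPM in those of the WT-labelled library, a ratio of 1.495 (1.45 to 1.54), below the limit of 2. C4b, Hc (which encodes C5), the alternative pathway protease Cfb and the inactivating protease Cfi lay between 1.07 and 1.09.

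The lectin pathway starts when mannose-binding lectins dock on microbial sugars and activate the protease encoded by Masp1. In Malat1-rich cells the ratio was 0.918 (0.885 to 0.952) for Masp1, 1.347 (1.22 to 1.49) for Mbl1 and 1.02 (0.972 to 1.08) for Mbl2, and no gene of the pathway passed the size rule in any subset of hepatocytes.

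Both metallothioneins were higher in the KO-labelled library in both kinds of cell, past the size rule in Malat1-rich cells. Mt1 had 3364 UMIs in the KO-labelled and 1059 in the WT-labelled library there (152 and 50.6 CPM), a ratio of 3.002 (2.80 to 3.22). Mt2 had 890 and 188 UMIs (40.2 and 8.97 CPM), a ratio of 4.47 (3.82 to 5.26). In Malat1-poor cells the ratio was 1.21 (1.16 to 1.27) for Mt1 and 1.44 (1.19 to 1.74) for Mt2. Over all hepatocytes Mt2 had 1111 UMIs in the KO-labelled and 420 in the WT-labelled library (41.8 and 15.2 CPM), a ratio of 2.75 (2.45 to 3.08), and Mt1 6939 and 5503, a ratio of 1.31 (1.26 to 1.36). The thinned share of Malat1-rich cells with Mt2 was 7.24% in the KO-labelled and 1.65% in the WT-labelled library, against 0.296% and 0.437% of T cells and 0.837% (0.228 to 2.13) and 0.747% (0.243 to 1.74) of B cells. The WT-labelled hepatocyte share, with an interval from 1.16 to 2.27, overlapped these backgrounds.

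None of the 14 soluble acute phase genes passed the size rule, either over all hepatocytes or in Malat1-rich or Malat1-poor cells. In Malat1-rich cells their ratios ran from 0.892 for Crp, C-reactive protein, to 1.46 for Orm2, with 8 intervals above 1 and 1 below, against 15% and 14.1% of all genes. The 14 were not sorted by how each responds to inflammation, so this count gives no direction of an acute phase response. Cp, the copper protein ceruloplasmin, was at 1.312 (1.276 to 1.3495), the pentraxin Apcs at 1.38 (1.20 to 1.59), Hp at 1.15 (1.10 to 1.19) and Hpx at 1.001 (0.970 to 1.03). In Malat1-poor cells 8 of the 14 intervals lay below 1 (10.1% of all genes) and that of Saa1 above it (10.8%), at 1.78 (1.52 to 2.09), which rests on the few cells described above. The lowest was Cp at 0.656 (0.600 to 0.717). Itih3 and Itih4, heavy chains of the inter-alpha-trypsin inhibitors, stood at 1.15 and 1.14 in Malat1-rich and at 0.808 and 0.806 in Malat1-poor cells.

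The 8 coagulation and contact phase genes and the 6 anticoagulant, fibrinolytic and adhesion genes stayed close to a ratio of 1 in Malat1-rich cells. The first group ran from 0.951 for F11 to 1.29 for Kng1, and the second from 0.946 for Serpinc1 to 1.03 for Vtn, which encodes vitronectin. Prothrombin (F2) was at 1.15 (1.10 to 1.19) and the factors F7, F9 and F10 between 1.01 and 1.13. In Malat1-poor cells 6 of the 8 and 6 of the 6 intervals lay below 1, against 10.1% of all genes. The only gene of the 45 past the size rule downwards in any cluster was Serpind1, encoding heparin cofactor II, in cluster 18, with 12 UMIs in 30 cells of the KO-labelled and 92 in 96 cells of the WT-labelled library. In that cluster 1.48% of all genes were lower by the rule, a share near that of 1 in the 40 members tested.

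Few of these genes were zonal in both libraries. Hepatocytes were ordered by 20 periportal and 20 pericentral landmark genes, none of them among the 45, and cut into 3 bands, which are ranges of a score and not cell types: 1121 of the 6315 hepatocytes lay within 0.1 of a boundary. Of 44 genes with enough UMIs, 4 were at least 1.5 times as high in the periportal as in the pericentral band in both libraries, Orm1, Hpx, C9 and Mt1, against 4.13% of all genes tested. Only Pros1, encoding protein S, the cofactor of the anticoagulant protein C, was pericentral by that rule, against 4.81% of all genes. Saa2 had too few UMIs. From periportal to pericentral, Orm1 stood at 444, 196 and 130 CPM in the KO-labelled and at 455, 240 and 216 CPM in the WT-labelled library, ratios of 3.42 (3.21 to 3.65) and 2.11 (1.997 to 2.23). Hpx went through 719, 414 and 392 CPM in the KO-labelled and 942, 508 and 524 CPM in the WT-labelled library, ratios of 1.83 (1.76 to 1.91) and 1.80 (1.73 to 1.87). C9 had ratios of 1.79 (1.61 to 1.99) and 1.73 (1.58 to 1.91). Pros1 climbed through 59.4, 95.04 and 129 CPM in the KO-labelled and 74.6, 92.1 and 115 CPM in the WT-labelled library. Its pericentral level was 2.17 (1.93 to 2.43) times the periportal level in the KO-labelled and 1.54 (1.39 to 1.70) times in the WT-labelled library.

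Not all 5 held within both kinds of hepatocyte. Within each kind the score was computed anew and cut into 3 bands. These bands therefore do not hold the same cells as the bands of all hepatocytes. C9 was periportal in Malat1-rich cells (1.90 in the KO-labelled and 1.72 in the WT-labelled library) and in Malat1-poor cells (4.27 and 2.29). Orm1 passed only in Malat1-poor cells (1.91 and 1.89), with 1.46 in the KO-labelled and 1.63 in the WT-labelled library in Malat1-rich cells, while Hpx passed only in Malat1-rich cells (1.80 and 1.998). In both libraries the ratio of Orm1 over all hepatocytes lay above that in either kind of cell. Mt1, at 1.62 in both libraries over all hepatocytes, passed in neither, and with each cell given the same weight its log2 ratio was 0.02 in the KO-labelled and -0.23 in the WT-labelled library. Of all genes tested, 2.79% were periportal and 3.26% pericentral in Malat1-rich cells, and 4.21% periportal in Malat1-poor cells. With equal weights for cells C9 was the only periportal gene left. In Malat1-poor cells 13 of the 44 genes were pericentral, against 15.2% of all genes tested there, F5 the most, with a pericentral level 4.74 and 2.26 times the periportal level. In Malat1-rich cells Mbl1 alone was pericentral, at 1.73 and 2.11 times.

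**Figure D4:**
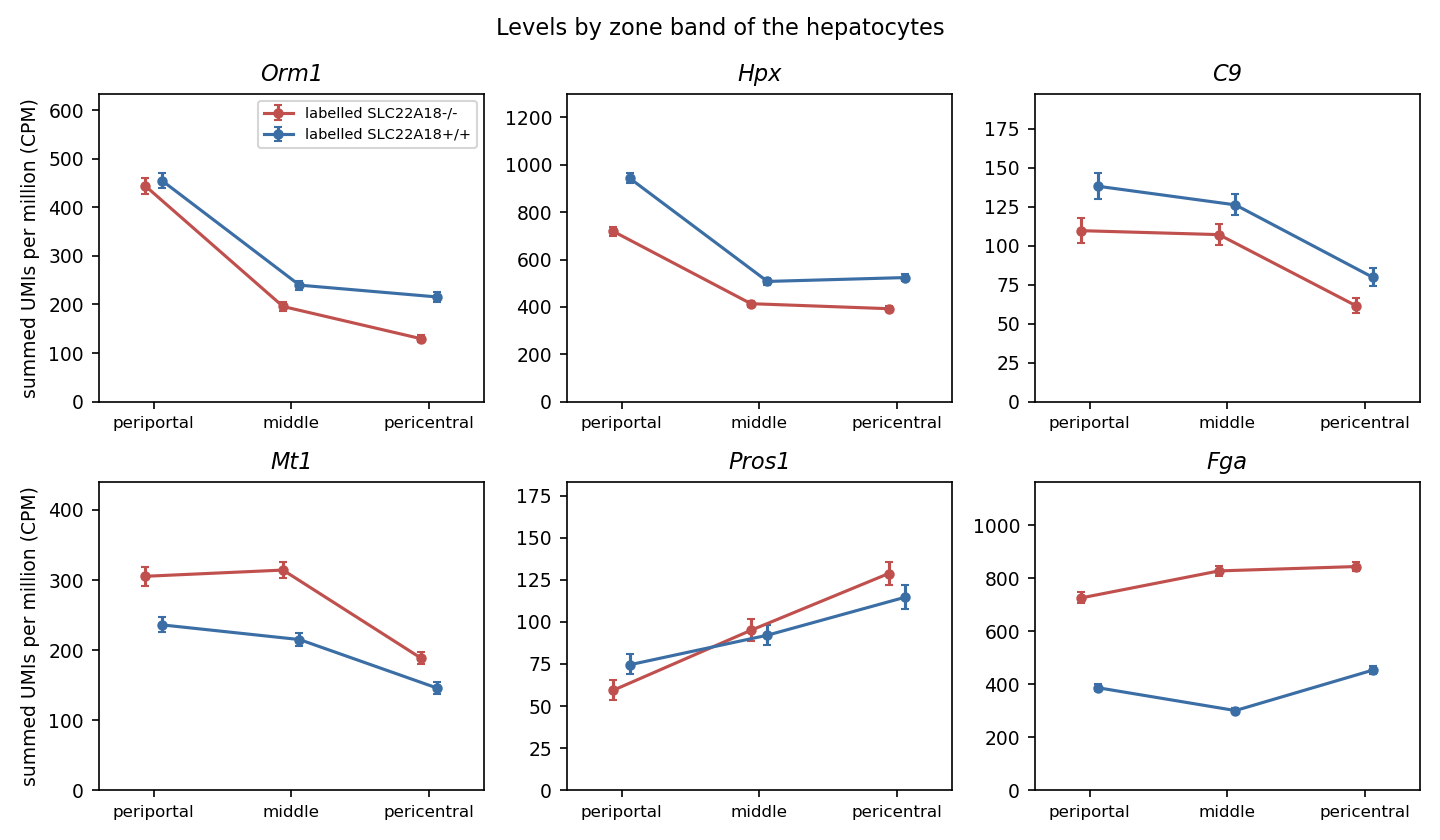
Level (CPM, from summed UMIs) in the periportal, middle and pericentral bands of all hepatocytes for the 5 zonal genes and Fga, in the library labelled SLC22A18-/- (red) and the library labelled SLC22A18+/+ (blue), with exact 95% counting intervals. Orm1, Hpx, C9 and Mt1 are lowest or near their lowest in the pericentral band, Pros1 is highest there, and Fga is higher in red in all 3 bands.

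The difference between the libraries was not confined to a band. Mt2 passed the size rule in the periportal (2.74, 2.23 to 3.37), middle (2.86, 2.405 to 3.42) and pericentral band (2.92, 2.33 to 3.69). C8b passed in the middle (2.34, 2.09 to 2.62) and pericentral band (2.21, 1.97 to 2.48), with 1.85 (1.63 to 2.11) in the periportal band, and Fga in the middle band at 2.75 (2.64 to 2.87), with 1.88 (1.79 to 1.96) and 1.86 (1.79 to 1.93) in the periportal and pericentral bands. No gene of the 45 was lower by the rule in a band. By comparison 0.230%, 0.459% and 0.563% of all genes were higher, and 0.17%, 0.348% and 0.405% lower, in the periportal, middle and pericentral band. Malat1-rich cells made up 80.4%, 75.8% and 79.3% of these bands in the KO-labelled and 80.9%, 69.0% and 66.4% in the WT-labelled library, and the part of that mix in the band ratios was not tested.

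Outside hepatocytes, 8 of the 45 genes stood clear of the free RNA of hepatocytes in at least 1 class, meaning at least 5 times the level that the panel of 16 hepatocyte genes would give, with at least 20 UMIs, in both libraries. Of all genes with enough UMIs in hepatocytes 68.4% did so, while 37 of the 45 did not. Cp was highest in cholangiocyte-like cells, the lining of bile ducts, with 3131 UMIs in 66 cells of the KO-labelled and 2243 in 53 cells of the WT-labelled library (3034 and 2530 CPM, or 6.39 and 6.84 times the hepatocyte level). C3 was highest in mesothelial-like cells of the liver surface (1753 and 1763 CPM) and was also raised over background in cholangiocyte-like cells (764 and 896 CPM). Neutrophil-like cells carried Hp at 757 CPM in the KO-labelled and 977 CPM in the WT-labelled library.

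Endothelial-like, stellate-like and Kupffer-like cells contributed the rest, and the endothelial-like class was not split by kind of vessel. Endothelial-like cells, 2555 in the KO-labelled and 2717 in the WT-labelled library, carried Pros1 at 334 and 333 CPM, or 3.35 and 3.54 times the hepatocyte level. They also carried Mt1 (451 and 409 CPM), Mt2 (67.0 and 62.0 CPM), Masp1 (196 and 187 CPM) and Lbp, the lipopolysaccharide-binding protein (80.9 and 81.3 CPM). Masp1 was highest in stellate-like cells, at 427 CPM in the KO-labelled and 478 CPM in the WT-labelled library, and these cells also carried Pros1 (153 and 154 CPM). Kupffer-like cells, the resident macrophages, carried Mt1 at 251 and 182 CPM, a ratio of 1.38 (1.31 to 1.46). Of the 8 pairs of gene and class with at least 100 cells in each library, 0 passed the size rule between the libraries, with ratios from 0.894 for Masp1 in stellate-like cells to 1.38. Of all genes 0.115% passed in either direction in endothelial-like, 0.211% in Kupffer-like and 1.4% in stellate-like cells. The endothelial ratio of Mt2 was 1.08 (1.01 to 1.16), beside 4.47 in Malat1-rich hepatocytes.

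**Figure D5:**
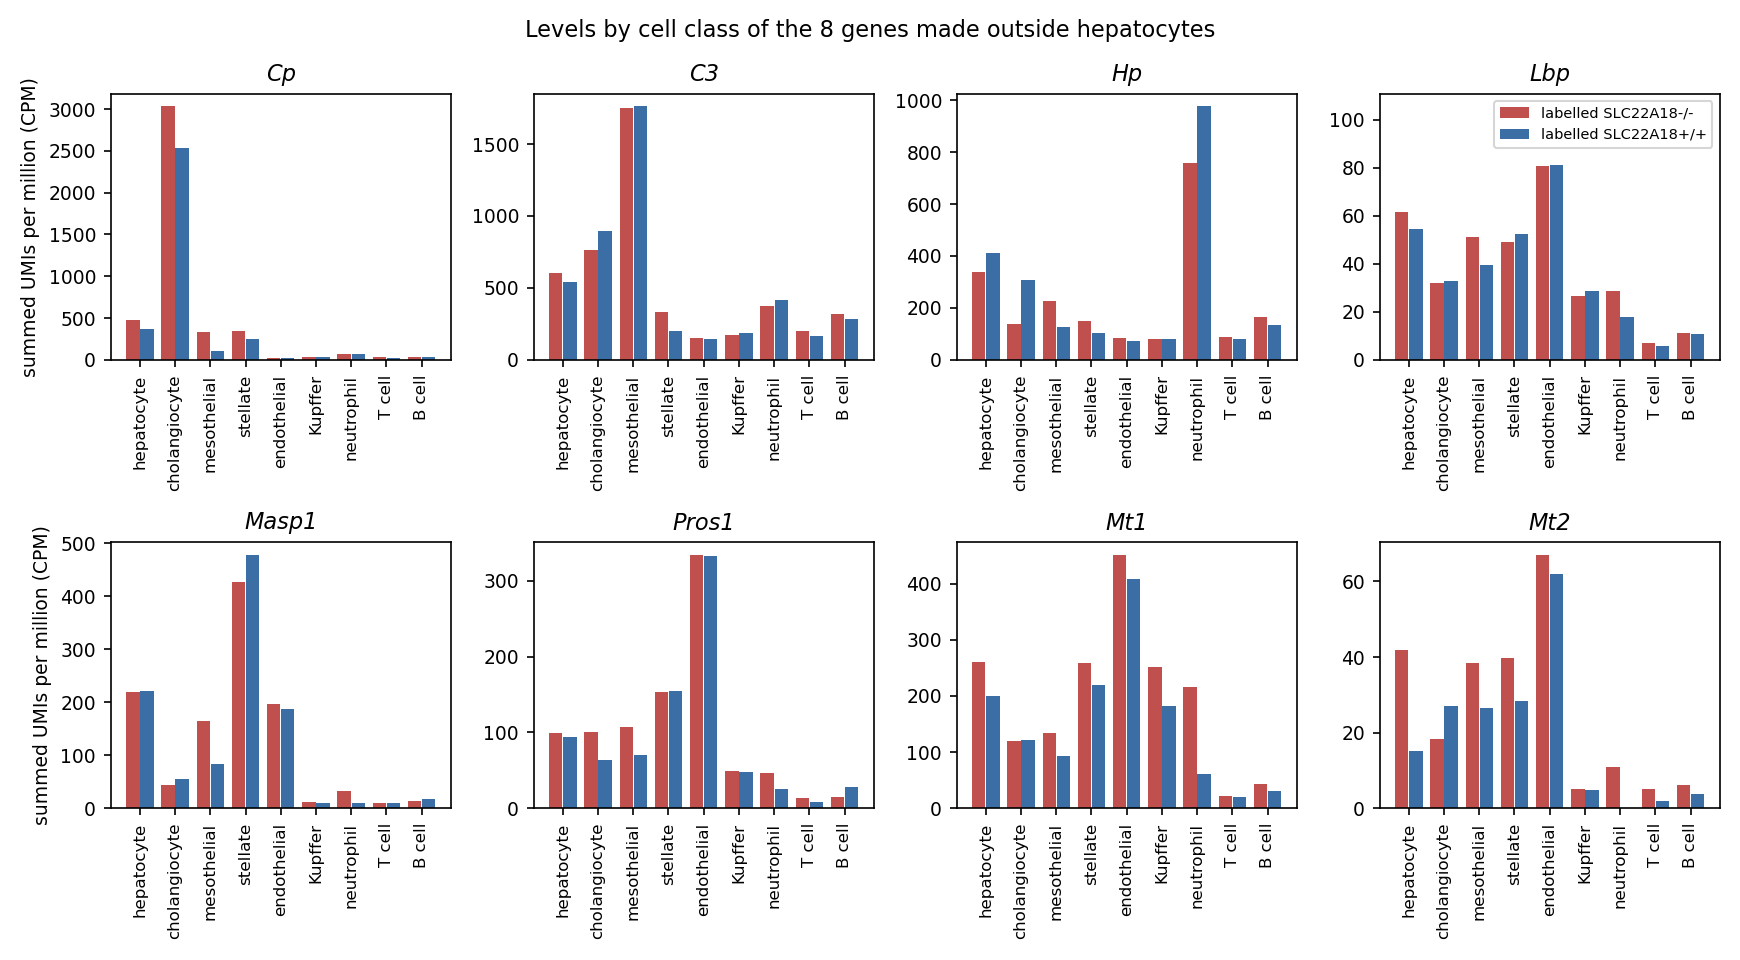
Level (CPM, from summed UMIs) of the 8 genes found above free RNA outside hepatocytes, in hepatocytes and 8 other classes, for the library labelled SLC22A18-/- (red) and the library labelled SLC22A18+/+ (blue). Each panel has its own axis from 0, without error bars. Cp peaks in cholangiocyte-like, C3 in mesothelial-like, Hp in neutrophil-like, Masp1 in stellate-like and Lbp, Pros1, Mt1 and Mt2 in endothelial-like cells, and T and B cells give the background.

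No fibrinogen chain passed this rule outside hepatocytes. In stellate-like cells Fga stood at 454 CPM in the KO-labelled and 121 CPM in the WT-labelled library, 2.07 and 1.34 times what free RNA would give. In T cells it stood at 107 and 82.9 CPM, or 0.967 and 2.005 times that background, and in B cells at 180.4 and 140.2 CPM, or 0.958 and 1.84 times. Stellate-like cells were thus the highest of these classes in the KO-labelled library only. Stellate-like cells also held the most Malat1 of the compared classes other than hepatocytes (23942 and 22588 CPM).

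Other genes of the same pathways, taken as 5 lists, mostly did not differ by the size rule. Over all hepatocytes 0.292% of all genes were higher and 0.163% lower by that rule, so 0 in lists as short as these says little. Of 18 measured genes in a list of 19 other acute phase proteins, 2 were higher in hepatocytes of the KO-labelled library and 0 lower, with a median log2 ratio of 0.01. Fgl1, a secreted relative of fibrinogen, had 4103 UMIs in the KO-labelled and 1816 in the WT-labelled library, a ratio of 2.35 (2.22 to 2.48). Steap4, a metalloreductase induced by inflammation, had 1860 and 720 UMIs, a ratio of 2.68 (2.46 to 2.93). Their ratios were 3.23 and 3.13 in Malat1-rich cells, while in Malat1-poor cells Fgl1 stood at 1.10 and Steap4 at 0.609. Albumin and transthyretin, negative acute phase proteins, had ratios of 0.752 and 0.817 over all hepatocytes and of 0.949 and 0.954 in Malat1-rich cells. In Malat1-poor cells albumin was at 0.672 (0.666 to 0.678) and transthyretin at 1.09 (1.07 to 1.10), so the pooled ratio of transthyretin lay below that in either kind of cell.

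Of 27 measured complement genes outside the 45, 0 passed in hepatocytes (median log2 ratio 0.08), with Serping1, the C1 inhibitor, at 1.12 (1.09 to 1.16). Of 25 further coagulation and fibrinolysis genes 0 passed (median 0.11), with Kng2 at 1.21 (1.18 to 1.23) and Hrg at 1.12 (1.08 to 1.15). Of 27 regulators of the acute phase response 0 passed (median 0.04). Lifr, a receptor of the interleukin-6 family, was at 1.56 (1.52 to 1.61) and the hepatocyte factor Hnf4a at 1.01 (0.980 to 1.04). In Malat1-rich cells regulators went both ways. Foxa2 was at 1.93 and Socs3 at 1.72, but Tsc22d3 at 0.650 and Sgk1 at 0.661, all chosen after their values were seen. In the same cells Stat3 was at 0.930, Cebpa at 0.773, Cebpb at 0.820 and Rela, of NF-kB, at 0.893, with intervals below 1. Nfkb1, also of NF-kB, at 0.988 and Cebpd at 1.21 had intervals that include 1, as did Fkbp5 at 1.06 and Per1 at 0.981. Of 6 genes of the metal response 0 passed (median -0.06), with the zinc importer Slc39a14 at 1.29 (1.26 to 1.32) and Gclc, of glutathione synthesis, at 0.883 (0.857 to 0.911). In Kupffer-like cells Il6, chosen after its values were seen, had 1139 UMIs in the KO-labelled and 683 in the WT-labelled library (87.7 and 59.3 CPM), a ratio of 1.48 (1.34 to 1.63), below the limit of 2.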

How the data were processed

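The deposited matrices are whole, unnormalized UMI counts. Per the file headers they were written by Cell Ranger 8.0.1, and the submitters' processing notes also name STAR and mm10. From these counts, barcodes with at least 500 UMIs, at least 300 genes and at most 20% mitochondrial UMIs were kept, and Scrublet in scanpy 1.11.5 (expected rate 8%) removed 304 doublets (2.65%) from the KO-labelled and 429 (3.45%) from the WT-labelled library. Both libraries were clustered together (2000 variable genes without the 45, 30 components, 15 neighbours, Leiden resolution 1.0) into 34 clusters. Clusters were named from lists of markers where at least 3 markers of a list were found in at least 10% of the cells, and 1616 cells of the KO-labelled and 1833 of the WT-labelled library stayed unnamed. UMIs were summed per library and class and divided by the class total. Ratios have exact Clopper-Pearson 95% intervals, which cover counting error only and treat UMIs of 1 cell as independent. Log2 ratios have 0.5 added to both counts. No replicates exist, so no count model was tested. Size factors of DESeq2 1.42.0 and edgeR 4.0.16 served only as other scalings. Shares of cells were computed after thinning each cell to 2000 UMIs. The ratio steps were tested on simulated Poisson counts, with no UMIs piled up in single cells and no difference between library preparations. For the size rule every gene was set as detected in all cells. That simulation therefore does not show how the intervals behave in the real libraries. Values were given in full for members past the size rule in hepatocytes or a band, the 5 strongest zonal members each way, those found outside hepatocytes, the 8 highest in CPM and, from each further list, genes past the rule or else the 2 with the most UMIs. 1 gene that this rule names is not reported here. Other named genes were chosen after their values were seen. The 45 genes and the lists were chosen with earlier results of these data known, and the naming rule and the Malat1 split were set after seeing the data.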

Additional observations from a re-analysis of the deposited data

Results flagged for a closer look

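4 genes had a ratio of the KO-labelled over the WT-labelled library above 1 in Malat1-rich and below 1 in Malat1-poor hepatocytes, with a size past the rule in the first. Fga stood at 3.24 in Malat1-rich and 0.838 in Malat1-poor cells. C8b stood at 2.98 and 0.689, Fgb at 2.24 and 0.811, and Fgg at 2.23 and 0.802. These opposite directions come from 1 library per genotype, and the difference between the kinds of cell was not tested.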

How the results depend on the processing

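Of the summary values recomputed under alternatives 68 stayed close to the value reported, 17 moved and 0 were labelled reversed. That label was not given to medians that started near 0 and changed sign, which are listed below. Of the values of single genes 435 stayed close, 237 moved and 3 reversed. With a ratio of at least 1.5 in place of 2, 5 genes were higher in the KO-labelled library. The splits by Malat1 were chosen after seeing the data. Malat1-rich clusters gave 6 higher genes and a median log2 ratio of 0.11. Malat1-poor clusters gave 0 and -0.31, with log2 ratios reversed to -0.53 for C8b and -0.26 for Fga. For zonation, a ratio of at least 2 left 1 periportal gene (Orm1) and 0 pericentral genes, a minimum of 20 UMIs gave 2 pericentral genes (Saa2 and Pros1), and equal weights for cells left 1 periportal gene (C9) and reversed the log2 zone ratio of Mt1 in the WT-labelled library to -0.23. For the kinds of hepatocyte the bands were cut anew. Malat1-rich clusters gave 2 periportal genes and median log2 zone ratios of 0.19 in the KO-labelled and 0.23 in the WT-labelled library. Malat1-poor clusters gave 2 periportal and 13 pericentral genes with medians of -0.64 and -0.30, against 0.02 and 0.03 over all hepatocytes. An excess of at least 10 left 5 genes made outside hepatocytes. The cause of these changes was not tested. The median log2 ratio over all hepatocytes was -0.03 with the size factors of DESeq2 and with TMM factors, against 0.02 as reported. At clustering resolution 0.5 the hepatocyte class also took in a cluster of few UMIs per cell. No paired analysis was possible because there is 1 library per genotype, and for the same reason no replicate could be left out.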
